A study of Mus musculus with 8 samples.

Results

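The transcripts described here are the 10 genes widely used to tell classes of inhibitory interneurons apart: Sst, Pvalb, Vip, Npy, Cck, Calb2, Reln, Adarb2, Cnr1 and Lhx6. They were taken by name from a table of 31417 mouse genes measured by poly(A) RNA sequencing of the hippocampus. The series compared Dclk3 knockout (KO) mice with wild-type (WT) mice, all aged 12 months, with 4 libraries of each genotype and each library made from a single hippocampus. Dclk3 encodes a serine/threonine kinase of the doublecortin-like family. The labels give neither the strain nor the deleted part of the gene, and they leave unstated whether a genotype's libraries came from different animals; p-values therefore measure the spread between these 8 samples, which may partly be technical.

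Interneurons are a minority of hippocampal neurons, release GABA and control when pyramidal and granule cells fire. Most are born in the medial or the caudal ganglionic eminence (MGE or CGE) of the embryonic forebrain. In mouse the transcription factor Lhx6 stays on in MGE-derived cells, among them the parvalbumin (Pvalb) basket cells and the somatostatin (Sst) cells. Adarb2, an RNA-binding member of the adenosine deaminase family, marks CGE-derived cells, among them those with vasoactive intestinal peptide (Vip), calretinin (Calb2), or cholecystokinin (Cck) together with the cannabinoid receptor Cnr1. Not all of the 10 markers belong to interneurons alone: pyramidal cells also transcribe Cck and Cnr1, mouse mossy cells make calretinin, and Cajal-Retzius cells make reelin (Reln) and calretinin. In bulk tissue, fewer cells of a type and less RNA per cell cannot be told apart.

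No marker was called different between KO and WT, and the fitted changes were small, from -0.18 for Npy to 0.29 for Adarb2 on the log2 scale. All 10 genes passed the filter on low counts, with 529 to 10632 counts per library. edgeR's quasi-likelihood test with Benjamini-Hochberg adjustment over 16228 genes called 0 of the 10 at an adjusted p under 0.05, beside 0.0% of all genes tested. At an unadjusted p under 0.05 there were 2 markers, Adarb2 and Vip, both with a higher mean in KO, beside 6.16% of all genes in either direction, 3.96% on the higher and 2.2% on the lower side. Which markers stood there depended on the tool. With limma-voom and sample weights they were Adarb2, with a higher mean in KO (limma adjusted p = 0.497), and Lhx6 and Cnr1, with lower ones (limma adjusted p = 0.486 and 0.488), beside 9.18% of all genes. Vip was not among them (limma adjusted p = 0.608). DESeq2 gave Vip an unadjusted p of 0.0502, and it called 0 of the 10 and 0.0138% of the genes it tested. In CPM, each library's count as a rate of its total after trimmed-mean scaling, the genotypes overlapped for each of the 10 markers, while they did not overlap in 3.8% of all genes. The log2 fold change was above 0 for 4 markers and below 0 for 6, with a median of -0.12, against 50.1% above 0 and a median of 0.00029 over all genes tested.

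The 8 libraries held 29301974 to 36552757 counts. Dclk3 itself stood at 5.92 to 9.29 CPM in KO libraries and 20.8 to 39.3 CPM in WT libraries. Each KO library lay below each WT library, and the remaining KO level was 28.9% of the WT level. Even so, the main edgeR test did not call Dclk3 (log2 fold change -1.79, SE 0.22, adjusted p = 0.234), while DESeq2 did (adjusted p = 9.79e-14). With WT replicate 2 left out, edgeR called Dclk3 too (log2 fold change -1.54, edgeR adjusted p = 0.0121). A gene left uncalled by the main edgeR test is therefore not shown to be unchanged. WT replicate 2 stood apart in several genes used here: its Gfap, an intermediate filament of astrocytes, was at 1805 CPM, against 442 to 567 CPM in the other WT libraries and 500.1 to 578 CPM in KO libraries. Without WT replicate 2, 3 markers had a log2 fold change above 0 and 7 below it, and the median was -0.05; at an unadjusted p under 0.05 by edgeR there were then Adarb2, with a higher mean in KO, and Lhx6, with a lower one, beside 4.57% of all genes.

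The windows around the start sites of Sst, Vip and Adarb2 are shown because the ratios that separated the genotypes, described further on, involve these genes and because each has a single start in the RefSeq promoter table (GRCm38.p6, the build also called mm10). Each runs from 250 bases before the start to 50 after it, and 9 of the 10 markers had a window. Capitals mark matches, on either strand, to the cAMP response element TGACGTCA, to its shorter core TGACG, which lies inside it, to TATAAA or to CCAAT. These occurred in 1.79%, 20.8%, 13.6% and 37.4% of 32851 windows of the same length, and a match is a description, not a binding site.
Sst, chr16:23890795-23891094, minus strand: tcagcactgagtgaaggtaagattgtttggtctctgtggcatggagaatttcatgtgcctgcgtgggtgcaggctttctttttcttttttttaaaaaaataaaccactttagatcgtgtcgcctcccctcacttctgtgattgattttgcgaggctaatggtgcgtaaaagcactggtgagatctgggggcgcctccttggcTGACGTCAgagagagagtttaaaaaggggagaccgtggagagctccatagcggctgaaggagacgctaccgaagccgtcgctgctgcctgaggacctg
Vip, chr10:5638968-5639267, plus strand: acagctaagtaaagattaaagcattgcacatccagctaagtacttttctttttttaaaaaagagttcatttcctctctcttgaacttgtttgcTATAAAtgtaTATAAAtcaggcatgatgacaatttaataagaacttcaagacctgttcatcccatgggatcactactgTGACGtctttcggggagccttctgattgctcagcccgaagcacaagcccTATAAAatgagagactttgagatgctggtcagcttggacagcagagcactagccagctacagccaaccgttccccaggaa
Adarb2, chr13:8202616-8202915, plus strand: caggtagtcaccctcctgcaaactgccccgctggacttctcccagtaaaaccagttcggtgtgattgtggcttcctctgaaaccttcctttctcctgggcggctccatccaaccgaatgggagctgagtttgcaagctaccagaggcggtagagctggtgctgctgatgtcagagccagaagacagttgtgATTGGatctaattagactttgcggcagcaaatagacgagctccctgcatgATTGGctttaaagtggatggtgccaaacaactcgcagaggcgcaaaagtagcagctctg
The Sst window held the full element TGACGTCA, its first base at position -48 counted from the start. The Vip window held the core TGACG at -79 and TATAAA at -30, -147 and -157. The Adarb2 window held neither of the cAMP motifs and had CCAAT on the opposite strand at -9 and -59.

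**Figure D1:**
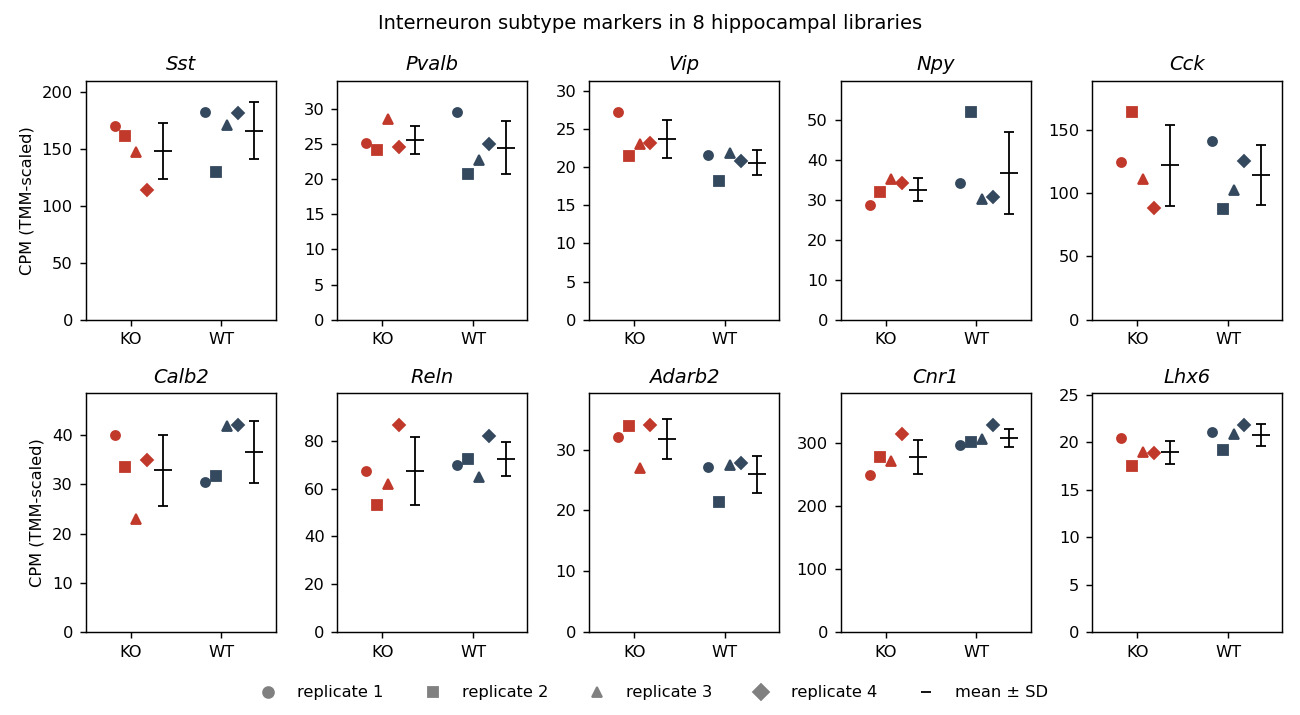
Level of each interneuron marker in CPM (vertical axes, from 0) in KO libraries (red, left) and WT libraries (blue, right); each point is a library, and the bar is the mean ± SD of 4 libraries. The genotypes overlap in every panel, and WT replicate 2 (square) is the highest Npy value and the lowest Adarb2, Vip and Pvalb value.

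Of the lineage markers, Lhx6 (ENSMUSG00000026890, mm10 2:36081953 to 36105408, minus strand) had 20.4, 17.5, 19.0 and 18.9 CPM in KO replicates 1 to 4, against 21.1, 19.1, 20.9 and 21.9 CPM in WT replicates 1 to 4. Of the KO libraries 3 lay below all WT libraries, and KO replicate 1 lay within the WT range. In log2 the KO to WT difference was -0.13 (SE 0.07; adjusted p = 0.796 by edgeR), and the exact two-sided permutation p was 0.0571, where 4 against 4 allows none below 0.0286. Lhx6 was the steadiest of the 10 markers: its SD of log2 CPM within a genotype was 0.0864, and 20.1% of all genes had a smaller one. A short noncoding RNA annotated inside Lhx6 shares 104 exon bases with it and was not in the table.

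Adarb2 (ENSMUSG00000052551, mm10 13:8202866 to 8768747, plus strand) had 32.03, 33.89, 26.92 and 34.11 CPM in KO replicates 1 to 4, against 27.11, 21.32, 27.43 and 27.85 CPM in WT replicates 1 to 4. All KO libraries but replicate 3 lay above the WT range, and WT replicate 2 lay apart below the other WT libraries. The KO mean was 31.7 ± 3.34 CPM and the WT mean 25.9 ± 3.09 CPM (SD, n = 4 each), a 1.22-fold level with a 95% interval of 1.04 to 1.43 before any adjustment. The log2 fold change was 0.29 (SE 0.10; unadjusted p = 0.0172 and adjusted p = 0.796 by edgeR), the largest in size of the 10. It was 0.21 without WT replicate 2 and stayed between 0.21 and 0.36 whichever library was left out. The related editing enzymes Adar and Adarb1 had log2 fold changes of -0.11 (SE 0.06) and 0.04 (SE 0.07).

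Among the neuropeptides, Sst (ENSMUSG00000004366, mm10 16:23889573 to 23890958, minus strand), whose cells inhibit the distal dendrites of pyramidal cells, had 169.6, 161, 147 and 114 CPM in KO replicates 1 to 4. In WT replicates 1 to 4 it had 182, 129.5, 171 and 181 CPM. In each genotype a single library was low, KO replicate 4 and WT replicate 2, and both lay below all other libraries. KO differed from WT by -0.17 in log2 (SE 0.14; adjusted p = 0.835 by edgeR), which became -0.06 when KO replicate 4 was left out and -0.26 when WT replicate 2 was. The fitted interval for the KO level ran from 0.718-fold to 1.11-fold of WT.

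Npy (ENSMUSG00000029819, mm10 6:49822710 to 49829507, plus strand) encodes neuropeptide Y, made by several MGE-derived types and by neurogliaform cells. It had 28.7, 31.9, 35.3 and 34.0 CPM in KO replicates 1 to 4, against 34.1, 51.8, 30.1 and 30.6 CPM in WT replicates 1 to 4. WT replicate 2 was above all other libraries, and it was also the library with high Gfap; the part of that library's state in its Npy level was not tested. With all libraries the log2 change was -0.18 (SE 0.17; adjusted p = 0.856 by edgeR), and without WT replicate 2 it was 0.04.

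Vip (ENSMUSG00000019772, mm10 10:5639218 to 5647617, plus strand) encodes the peptide of interneurons that inhibit other interneurons. It had 27.2, 21.5, 23.0 and 23.1 CPM in KO replicates 1 to 4, against 21.5, 18.2, 21.8 and 20.8 CPM in WT replicates 1 to 4. KO replicate 1 was the highest library and WT replicate 2 the lowest, and KO replicate 2 lay within the WT range. On the log2 scale KO exceeded WT by 0.20 (SE 0.09; unadjusted p = 0.0441 and adjusted p = 0.796 by edgeR) for Vip, or by 0.13 without KO replicate 1. That library also had the highest summed level of 5 neocortical markers, 169.9 CPM, against 131.5 to 138 CPM in the other KO libraries and 124 to 142 CPM in WT libraries. The next highest sum was in WT replicate 4, whose Vip, at 20.8 CPM, lay below all KO libraries. Neocortex also holds Vip cells, and the part of neocortical tissue in the Vip level was not tested.

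Cck (ENSMUSG00000032532, mm10 9:121489824 to 121495694, minus strand) encodes the peptide of one class of basket cells and lies on the chromosome of Dclk3, 10.0 Mb away. It had 124, 164, 111 and 88.1 CPM in KO replicates 1 to 4, against 141, 87.7, 103 and 126 CPM in WT replicates 1 to 4. Its libraries spread most of the 10 markers, with a highest value 1.87 times the lowest. Its log2 change was 0.09 (SE 0.20; adjusted p = 0.945 by edgeR), with an interval from 0.777-fold to 1.47-fold, and became -0.08 without KO replicate 2 and -0.01 without WT replicate 2.

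Of the calcium-binding proteins, Pvalb (ENSMUSG00000005716, mm10 15:78191114 to 78206400, minus strand), the parvalbumin of fast-spiking basket and chandelier cells, had 25.1, 24.1, 28.5 and 24.5 CPM in KO replicates 1 to 4. In WT replicates 1 to 4 it had 29.5, 20.7, 22.7 and 24.9 CPM. All KO libraries lay inside the WT range. Fitted over all libraries, the Pvalb change was 0.06 in log2 (SE 0.11; adjusted p = 0.927 by edgeR), and the interval ran from 0.885-fold to 1.23-fold. Without WT replicate 2 the log2 fold change was -0.01, without WT replicate 1 it was 0.16, and without KO replicate 3 it was close to 0.

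Calb2 (ENSMUSG00000003657, mm10 8:110137502 to 110168210, minus strand) had 40.0, 33.6, 22.9 and 34.9 CPM in KO replicates 1 to 4, against 30.6, 31.7, 41.8 and 42.2 CPM in WT replicates 1 to 4. KO replicate 3 was the lowest library, and the other KO libraries lay within the WT range. For Calb2 the log2 change was -0.15 (SE 0.17; adjusted p = 0.877 by edgeR), or -0.02 with KO replicate 3 left out and -0.26 with KO replicate 1 left out. Mossy cells of the mouse hilus are another source of calretinin. The summed level of 5 mossy cell markers was 53.3 to 58.0 CPM in KO libraries and 59.9 to 64.1 CPM in WT libraries. Most of that sum was Ajap1, a membrane protein of cell junctions, at 36.3 ± 1.08 CPM in KO and 42.9 ± 2.49 CPM in WT (SD, n = 4 each). Of the 5 genes, 3 had a log2 fold change above 0 and 2 below, with a median of 0.0030 and 0 called. Csf2rb2 had the opposite sign to Ajap1, at 2.42 ± 0.482 CPM in KO and 1.63 ± 0.268 CPM in WT (SD, n = 4 each). Neither of these 2 genes overlapped between the genotypes, where 3.8% of all genes tested did not overlap. KO replicate 3 was the lowest library in that sum as well. Among WT libraries the order was the other way. Replicates 1 and 2 had the highest sums, at 64.1 CPM each, and the lowest Calb2 levels. WT replicate 4 had the lowest WT sum, 59.9 CPM, and the highest Calb2 level. The part of mossy cells in the Calb2 level was not tested.

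Reln (ENSMUSG00000042453, mm10 5:21884454 to 22344702, minus strand) encodes the secreted glycoprotein reelin, made in the adult hippocampus by several interneuron types and by surviving Cajal-Retzius cells. It had 67.5, 53.2, 61.8 and 86.7 CPM in KO replicates 1 to 4, against 70.0, 72.4, 64.7 and 81.9 CPM in WT replicates 1 to 4. KO libraries lay both below and above the WT range. For Reln the fit gave -0.10 in log2 (SE 0.14; adjusted p = 0.900 by edgeR), not past the threshold, and leaving out KO replicate 4 or KO replicate 2 gave -0.25 or -0.0030. The Cajal-Retzius markers Trp73 and Ebf3 were low, at 5.19 ± 0.787 and 1.45 ± 0.366 CPM in KO and 5.40 ± 0.256 and 1.56 ± 0.267 CPM in WT (SD, n = 4 each), and the 4 listed Cajal-Retzius genes summed to 6.42 to 8.36 CPM in KO libraries and 6.65 to 7.79 CPM in WT libraries. An antisense gene shares 246 exon bases with Reln but held 15 counts over all libraries, against 17867 for Reln.

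Cnr1 (ENSMUSG00000044288, mm10 4:33924593 to 33948831, plus strand) encodes the presynaptic receptor through which endocannabinoids silence Cck basket cell terminals. It had 248, 278, 272 and 314 CPM in KO replicates 1 to 4, against 296, 301, 306 and 329 CPM in WT replicates 1 to 4. Of the KO libraries 3 lay below the WT range, and KO replicate 4 lay inside it. The fit gave -0.15 in log2 (SE 0.08; adjusted p = 0.796 by edgeR), with an exact two-sided permutation p of 0.114. Leaving out KO replicate 4 gave -0.21, and leaving out KO replicate 1 gave -0.09.

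**Figure D2:**
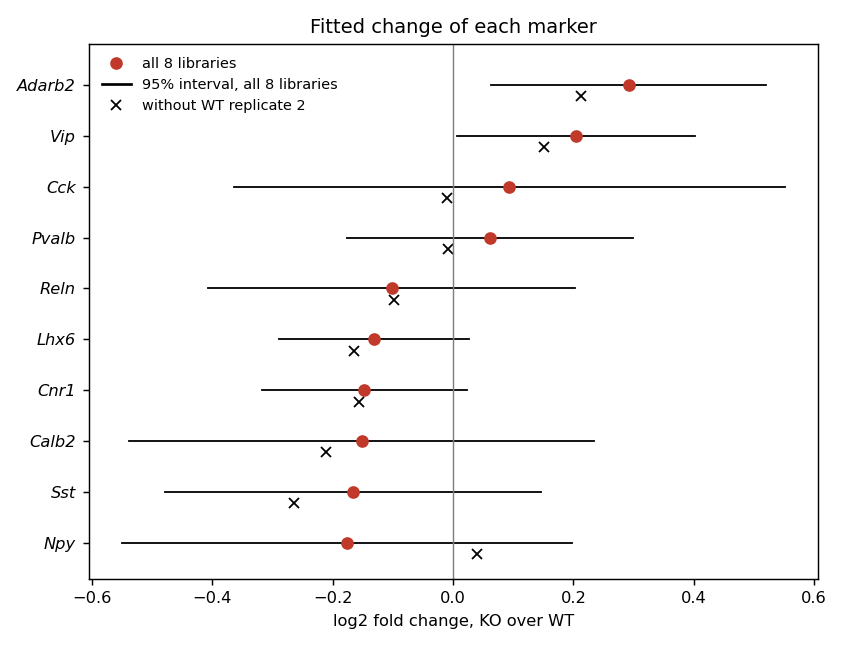
Fitted log2 fold change of KO over WT (horizontal axis) for each marker: red points use all 8 libraries, black lines are their unadjusted 95% intervals, and crosses leave out WT replicate 2. Intervals of 8 markers include 0, those of Adarb2 and Vip lie above it, and the crosses of Npy, Cck and Pvalb lie on the other side of 0 from their points.

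Levels of different genes were compared as CPM per kilobase of merged exons. By the median over the 8 libraries, Sst was highest at 229 CPM per kilobase. Cck followed at 90.2, Npy at 58.3 and Cnr1 at 46.3 CPM per kilobase. Pvalb stood at 23.8, Calb2 at 19.6 and Vip at 6.37 CPM per kilobase. The lowest were Lhx6 at 4.12, Reln at 2.90 and Adarb2 at 2.11 CPM per kilobase. The library ranges of neighbours in this order did not overlap between Sst and Cck, between Cnr1 and Pvalb, between Calb2 and Vip, or between Vip and Lhx6. The other 5 neighbouring pairs overlapped. The order carries the uncertainty of the annotated exon length, which was 566 bases for Npy and 23738 bases for Reln.

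A ratio of 2 markers counted in the same library does not depend on how libraries are scaled. The ratio did not overlap between genotypes in 5 of the 45 pairs of markers, or 11.1%, against 3.47% of all pairs of tested genes. Pairs that share a gene are not independent, and these ratios were examined after the marker levels had been seen, so they are a description and carry no test. The 5 ratios were Adarb2 and Vip over Lhx6, Adarb2 and Vip over Cnr1, and Sst over Adarb2. Adarb2 and Lhx6 are single markers of the CGE and MGE branches, and their ratio describes these genes only. The longer lists of the 2 branches, given below, had median log2 fold changes of -0.09 (CGE) and -0.11 (MGE). Adarb2 to Lhx6 stood at 1.57, 1.94, 1.42 and 1.81 in KO replicates 1 to 4, against 1.28, 1.11, 1.31 and 1.27 in WT replicates 1 to 4. The nearest libraries were KO replicate 3 and WT replicate 3. Vip to Lhx6 was 1.33, 1.23, 1.21 and 1.22 in KO replicates 1 to 4, against 1.02, 0.950, 1.05 and 0.949 in WT replicates 1 to 4. Here the gap between the genotypes was wider than the whole range of either genotype.

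Adarb2 to Cnr1 averaged 0.115 ± 0.0134 in KO and 0.0842 ± 0.00936 in WT, and Vip to Cnr1 averaged 0.0862 ± 0.0162 in KO and 0.0669 ± 0.00608 in WT (SD, n = 4 each). For Vip to Cnr1 the nearest values, 0.0737 in KO replicate 4 and 0.0727 in WT replicate 1, all but met. Sst to Adarb2 averaged 4.71 ± 0.960 in KO and 6.38 ± 0.289 in WT, with KO replicate 4 lowest at 3.34. Without WT replicate 2, 6 of the 45 ratios did not overlap, where 5.71% of all pairs of genes did not.

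**Figure D3:**
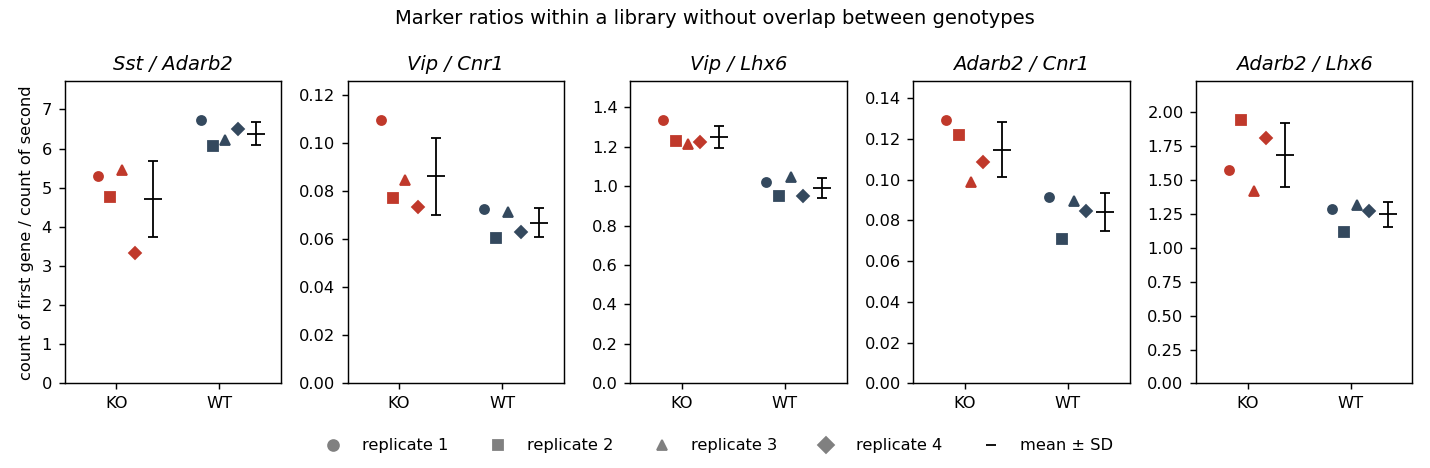
The 5 within-library count ratios of interneuron markers that did not overlap between KO libraries (red, left) and WT libraries (blue, right); vertical axes start at 0, points are libraries and bars are the mean ± SD of 4. Adarb2 to Lhx6 lies from 1.42 to 1.94 in KO and from 1.11 to 1.31 in WT.

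The general GABA neuron transcripts Gad1 and Gad2, which encode the GABA-synthesizing enzymes, and Slc32a1, the vesicular GABA transporter, summed to 596, 611, 633 and 638 CPM in KO replicates 1 to 4. In WT replicates 1 to 4 the sum was 666, 751, 678 and 712 CPM, so each KO library lay below each WT library. Of the 3 genes only Gad1, the largest part of the sum, did not overlap by itself, beside 3.8% of all genes tested. It had 368 to 393 CPM in KO libraries and 405 to 458 CPM in WT libraries. Gad2 overlapped, at 173 to 213 CPM in KO libraries and 195 to 238 CPM in WT libraries. Slc32a1 overlapped as well, at 50.8 to 56.7 CPM in KO libraries and 53.9 to 66.0 CPM in WT libraries. Each marker was therefore also expressed as a percentage of the counts of these 3 genes. Vip was at 4.56%, 3.51%, 3.64% and 3.62% in KO and 3.23%, 2.42%, 3.22% and 2.91% in WT replicates 1 to 4. Adarb2 was at 5.37%, 5.55%, 4.25% and 5.35% in KO and 4.07%, 2.84%, 4.05% and 3.91% in WT replicates 1 to 4. Both ratios lay higher in every KO library (exact two-sided permutation p = 0.0286 for each, the smallest that 4 against 4 can give). Against the same denominator the genotypes did not overlap in 16.1% of all genes, and the denominator itself did not overlap, so 2 of 10 markers is near that background. The Vip difference had an exact permutation p of 0.0571 without KO replicate 1 or without WT replicate 2, and so had the Adarb2 difference without any single WT library. For Sst this percentage averaged 24.0% ± 4.60 in KO and 23.8% ± 4.47 in WT, and for Npy 5.23% ± 0.320 in KO and 5.19% ± 1.20 in WT (SD, n = 4 each).

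Correlations were computed across the 8 libraries. Of 45 pairs, 25 correlated positively in log2 CPM, the median Pearson r was 0.07, and no pair had an adjusted permutation p under 0.05. At an unadjusted exact permutation p under 0.05 there were 2 pairs. Sst and Cck correlated positively (Pearson r = 0.73, exact permutation p = 0.0423, adjusted p = 0.698; Spearman rho = 0.64, exact permutation p = 0.0962, adjusted p = 0.805; n = 8). Without the 2 libraries farthest from the Sst median, r was 0.17. Leaving out extreme values also narrows the Sst range, which by itself tends to lower r, so the part of those libraries cannot be told from this value. Without WT replicate 2 the r of Sst and Cck was 0.65, and between deviations from the genotype means it was 0.84. On such deviations 5 pairs had an unadjusted permutation p under 0.05 and none an adjusted one, the lowest adjusted p being 0.191. Because the genotype means were subtracted, the 8 deviations are not fully exchangeable, and these permutation p-values tend to be too low. Npy and Adarb2 correlated negatively (Pearson r = -0.74, exact permutation p = 0.0455, adjusted p = 0.698; Spearman rho = -0.60, exact permutation p = 0.132, adjusted p = 0.805; n = 8). Without the 2 libraries farthest from the Npy median that r was 0.05, with the same limit. Without WT replicate 2 alone it was -0.15, so the pooled relation of Npy and Adarb2 depends largely on that library.

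Other genes of the same lineages were read from lists. How far the listed genes are confined to interneurons in this tissue was not tested, so the list medians describe these genes only. Of 12 general GABA neuron genes, 9 had a log2 fold change below 0 and 3 above, with a median of -0.09, and edgeR called 0. Gad1 was the only 1 of the 12 genes without overlap, beside 3.8% of all genes tested. Gad1 stood at 376 ± 11.5 CPM in KO and 432 ± 22.6 CPM in WT, Gad2 at 189.9 ± 17.0 and 212 ± 19.2 CPM in KO and WT, and Slc32a1 at 53.7 ± 2.89 and 58.3 ± 5.55 CPM in KO and WT (SD, n = 4 each). Of 14 tested MGE-lineage genes, 12 were below 0 and 2 above, with a median of -0.11 and 0 called. Among them Elfn1, a postsynaptic protein that sets synapses onto Sst cells, had 24.8 to 27.3 CPM in KO libraries and 27.5 to 29.2 CPM in WT libraries. Elfn1 was the only 1 of the 14 genes without overlap, beside 3.8% of all genes tested. Crhbp, which binds corticotropin-releasing hormone, and Nxph1, a neurexin ligand, had log2 fold changes of -0.25 (SE 0.12) and -0.14 (SE 0.07).

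Of 16 tested CGE-lineage genes, 12 were below 0 and 4 above, with a median of -0.09 and 0 called, while of the markers of that branch not on the list Adarb2, Vip and Cck were above 0 and Calb2 and Cnr1 below. Htr3a, the serotonin-gated channel of CGE-derived cells, had 12.8, 11.6, 11.5 and 12.2 CPM in KO replicates 1 to 4, against 14.2, 14.1, 15.8 and 14.9 CPM in WT replicates 1 to 4. The genotypes did not overlap in Htr3a (log2 fold change -0.29, SE 0.07; edgeR adjusted p = 0.796). It was the only 1 of the 16 genes without overlap, beside 3.8% of all genes tested. Lamp5, a marker of neurogliaform cells, had 37.0 to 42.8 CPM in KO libraries and 23.0 to 39.0 CPM in WT libraries (log2 fold change 0.29, SE 0.14), with WT replicate 2 at 23.0 CPM. Npas1, a transcription factor, had a log2 fold change of -0.27 (SE 0.14). Without WT replicate 2, 11 of 12 general GABA genes, 12 of 14 MGE genes and 11 of 16 CGE genes were below 0, beside 8072 of 16447 genes tested.

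**Figure D4:**
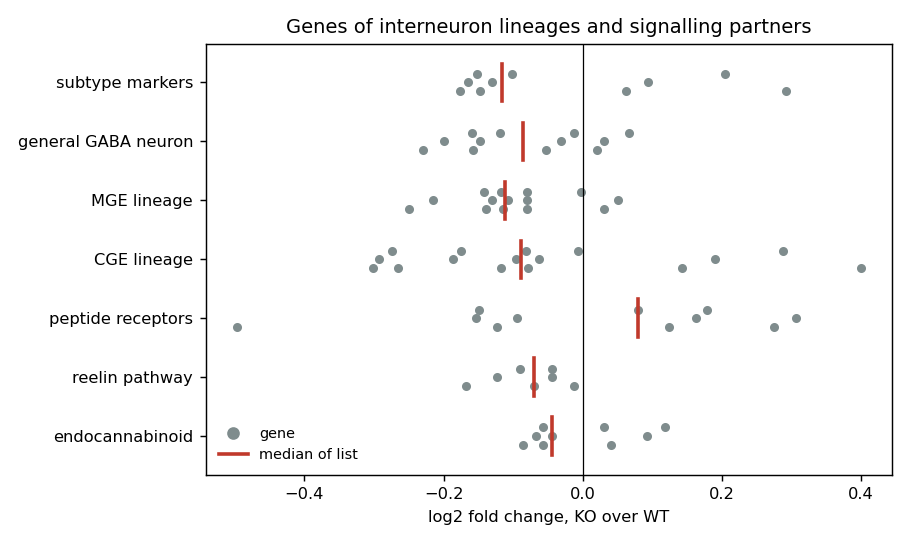
Log2 fold change of KO over WT (horizontal axis) for each tested gene (grey) of 7 lists, with the list median in red; genes are spread vertically only to be seen. Medians of the general GABA, MGE and CGE lists lie between -0.11 and -0.09, and that of the peptide receptors lies at 0.08.

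Receptors for the 4 peptides and the pathways of reelin and Cnr1 were not called in any gene. Of 11 tested peptide receptor genes 6 were above 0 and 5 below, with a median of 0.08, or -0.04 without WT replicate 2. The somatostatin receptors Sstr2, Sstr3 and Sstr4 had log2 fold changes of -0.50 (SE 0.25), -0.15 (SE 0.08) and -0.15 (SE 0.09). Sstr2 stood at 8.97 ± 2.16 CPM in KO and 12.7 ± 4.65 CPM in WT (SD, n = 4 each), with WT replicate 2 highest at 19.4 CPM. All 7 reelin pathway genes were below 0, with a median of -0.07, while 6 of 7 were below 0 without WT replicate 2. The adaptor Crkl was at 55.6 ± 5.79 CPM in KO and 62.4 ± 3.14 CPM in WT, and the kinase Fyn and Pafah1b1 had log2 fold changes of -0.07 (SE 0.05) and -0.12 (SE 0.09). Of 9 endocannabinoid genes 4 were above 0 and 5 below, with a median of -0.04; Napepld, a synthetic enzyme, was at 0.12 (SE 0.08), and Cnrip1 and Sgip1, which bind the receptor Cnr1, were at -0.06 (SE 0.05) and -0.09 (SE 0.08).

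Of 6 tested relatives of the markers, 2 were above 0 and 4 below. Calb1, the calbindin of granule cells and some interneurons, was at 145 ± 6.49 CPM in KO and 134 ± 8.95 CPM in WT, and Adcyap1, the peptide relative of Vip, was at 3.67 ± 0.644 CPM in KO and 4.87 ± 2.73 CPM in WT (SD, n = 4 each).

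Markers of principal cells, of tissue next to the hippocampus and of glia were read beside these values, and edgeR called 0 of them. The summed level of 7 granule cell markers was 517 to 554 CPM in KO libraries and 418 to 513 CPM in WT libraries, without overlap, and all 7 had a log2 fold change above 0. The nearest sums, in KO replicate 2 and WT replicate 1, almost met. By itself only 1 of the 7 genes, Npnt, did not overlap, beside 3.8% of all genes tested. The sum of 8 pyramidal cell markers was 735 to 879 CPM in KO libraries and 804 to 921 CPM in WT libraries, and 6 of 8 were below 0. Thalamic and habenular markers summed to 66.7 to 97.8 CPM in KO libraries and 68.0 to 80.9 CPM in WT libraries, and striatal markers to 159.5 to 174 CPM in KO libraries and 159 to 191 CPM in WT libraries. Choroid plexus markers ranged from 184 to 3409 CPM in KO libraries and from 69.2 to 2181 CPM in WT libraries, and all 7 had a log2 fold change above 0. In both genotypes the sum was highest in replicates 2 and 3, at 3409 and 1086 CPM in KO and 2181 and 881 CPM in WT. The 7 genes rose together in those libraries, WT replicate 2 among them, so their signs are not independent. Striatal genes were above 0 in 2 of 6, thalamic and habenular genes in 6 of 7 tested, and neocortical genes in 4 of 5. Astrocyte, oligodendrocyte, microglial and endothelial sums overlapped between the genotypes. Of these glial and vascular genes, 5 of 5 oligodendrocyte, 5 of 5 microglial, 4 of 4 endothelial and 3 of 5 astrocyte genes had a log2 fold change above 0, with medians of 0.16, 0.03, 0.06 and 0.04. The myelin gene Mobp was at 647 ± 45.8 CPM in KO and 517 ± 106 CPM in WT (SD, n = 4 each; log2 fold change 0.32, SE 0.13; edgeR adjusted p = 0.796). No listed marker of these other cell types was at 0 in all libraries, and the part of tissue makeup in the marker levels was not tested.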

How the data were processed

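The authors deposited whole-number read counts per Ensembl gene, without normalization, with 1 column per library for 4 KO and 4 WT libraries. Per the labels' protocols, libraries were made from 1000 ng of total RNA with a stranded poly(A) kit and 12 PCR cycles; the submitters' processing notes name bcl2fastq 2.17.1.14 and the genome build mm10. No source used here gives the aligner, counter, annotation release or strand setting. Reads copied by PCR carry no molecular identifiers.

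KO was compared with WT in edgeR 4.0.16 (R 4.3.3): filterByExpr, TMM scaling and the quasi-likelihood test with robust dispersions, adjusted by Benjamini-Hochberg over all tested genes, with a threshold of 0.05. The filter left 16228 genes. Standard errors are the log2 fold change divided by the square root of F, and 95% intervals use the t quantile of the fitted degrees of freedom. An exact two-sided permutation test over libraries was used for single values. Positions and exon lengths came from GENCODE M21 (mm10). DESeq2 1.42.0, limma-voom 3.58.1 with sample weights, DESeq2 size factors, other filters, the replicate number as a block, and each library left out in turn were the alternatives. The code was tested on simulated counts.

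The 10 markers and the gene lists were chosen with earlier results of these data known. Named genes were the 10 markers, Dclk3, Gad1, Gad2, Slc32a1 and, from each other list, genes among the 3 with the lowest p. Gfap falls under that rule; Adarb1 and the ratios of marker pairs were chosen after their values were seen, as were the counts without WT replicate 2.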

Additional observations from a re-analysis of the deposited data

Results flagged for a closer look

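A gap rule for a library that lies far from the other 3 of its genotype was applied to 40 groups of 4 values, and chance alone flags about 1 in 20 groups. It picked 5 values. In WT replicate 2, Adarb2 was at 21.3 CPM, against 27.1 CPM in the nearest WT library. Relative to the summed counts of Gad1, Gad2 and Slc32a1, the same library was low for Adarb2 at 2.84% (nearest 3.91%) and for Lhx6 at 2.55% (nearest 3.07%). KO replicate 1 was high for Vip on that scale at 4.56% (nearest 3.64%), and KO replicate 3 was low for Adarb2 at 4.25% (nearest 5.35%).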

How the results depend on the processing

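Of 140 refits of the 10 markers, 136 kept the sign of the log2 fold change and none was called, while 4 turned the sign, each with a library left out; no marker had an adjusted p below 0.346. The cause of a change of sign was not tested. With single libraries left out, the log2 fold change ran from -0.26 to -0.06 for Sst, -0.0083 to 0.16 for Pvalb, 0.13 to 0.25 for Vip, -0.25 to 0.040 for Npy and -0.081 to 0.22 for Cck. It ran from -0.26 to -0.02 for Calb2, -0.25 to -0.0030 for Reln, 0.21 to 0.36 for Adarb2, -0.21 to -0.09 for Cnr1 and -0.17 to -0.09 for Lhx6. The KO to WT ratio of mean CPM ran from 0.993 to 1.12 for Pvalb, 1.09 to 1.19 for Vip, 0.836 to 1.03 for Npy, 0.944 to 1.17 for Cck, 1.16 to 1.29 for Adarb2 and 0.864 to 0.935 for Cnr1. For Sst that ratio ran from 0.831 to 0.960 and for Calb2 from 0.833 to 0.989. For Reln it ran from 0.842 to 0.996 and for Lhx6 from 0.889 to 0.936. Relative to Gad1, Gad2 and Slc32a1 the ratio ran from 0.922 to 1.09 for Sst, 1.10 to 1.29 for Pvalb, 1.22 to 1.34 for Vip, 0.954 to 1.13 for Npy, 1.06 to 1.33 for Cck, 0.930 to 1.13 for Calb2, 0.964 to 1.12 for Reln, 1.28 to 1.46 for Adarb2, 0.987 to 1.04 for Cnr1 and 0.985 to 1.06 for Lhx6. With all 12 general GABA genes as the denominator it turned to 0.963 for Sst, 0.948 for Npy, 0.968 for Calb2, 0.972 for Cnr1 and 0.983 for Lhx6.

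The number of genes called was 0 in the main edgeR fit, 1 in edgeR with the replicate number as a block, 4 in DESeq2, and 0 to 1 with a library left out.

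The replicate numbers were not taken as pairs: deviations of same-numbered libraries correlated at 0.14, 0.12, -0.22 and -0.01, and among KO libraries only replicate 2 correlated best with its own number. With the replicate number as a block, 1 gene was called, Dclk3 (edgeR adjusted p = 0.00339), and no marker; unadjusted p-values under 0.05 went to Vip (0.0252), Adarb2 (0.0266) and Cnr1 (0.0456, lower in KO), beside 928 of 16228 genes.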
